A study of Mus musculus with 24 samples.

Results

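Pleural and pericardial mesothelium was compared with heart on 6 of the 24 arrays of the series, 3 of each tissue, and genes were followed in both directions. The comparison covered the probes detected on all 3 arrays of either tissue, which were 12166 of the 46120 probes on the Illumina Mouse Sentrix-6 BeadChip. The study profiled 8 mouse tissues to find genes of the mesothelial lineage, and heart was 1 of the 6 tissues the mesothelium was set against. All mice were male C57BL/6 at 7 weeks of age and none had a treatment. The mesothelium was dissected tissue in which pleura and pericardium had been pooled, so neither source can be seen alone, and the heart was labelled only as tissue of that organ. Whether the 3 arrays of a tissue held separate RNA samples is not given in the study, so the spread that the p-values rest on may be technical.

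Mesothelium is the single layer of flat cells that lines the body cavities and covers the organs in them. Its cells keep keratins and tight junctions like an epithelium, express the transcription factor Wt1, and release hyaluronan and lubricating proteins that let the lung and the heart slide. The heart wall holds cardiomyocytes packed with sarcomeres and mitochondria, together with endothelial cells and fibroblasts. Its outer layer, the epicardium, is itself a mesothelium, and the sources used here do not say whether it was kept on the heart samples.

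A probe counted as detected on an array where its detection score, the share of negative-control beads below it, was above 0.99. Per array 12176 to 13441 probes were detected in mesothelium and 10612 to 11322 in heart. Levels are normalized signals on the log2 scale, differences are mesothelium minus heart with the standard error of the limma fit, and a probe was called where its B-statistic was above 0 and its mean differed at least 2 fold. Arrays of mesothelium correlated with each other at 0.948 to 0.960, arrays of heart at 0.965 to 0.983, and arrays of the different tissues at 0.724 to 0.788. Of the probes tested 1663 (13.7%) were called higher in mesothelium and 1600 (13.2%) lower. The median difference over all tested probes was 0.04. In each direction the probes with at least 4 fold were 673 and 620, and those with at least 16 fold were 17 and 48. Where no array of the lower tissue was detected, that tissue was placed at its arrays' detection floors, the lowest signals of any detected probe (log2 6.06 to 6.69), and only a lower bound of the fold is given. This was the case for 556 of the higher and 236 of the lower probes. Only 721 of the higher and 457 of the lower probes could be given a gene or family name, so that a gene missing from the account may be present on the array under an identifier that was not resolved here. In these bulk samples fewer cells of a type and less RNA per cell cannot be told apart.

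**Figure D1:**
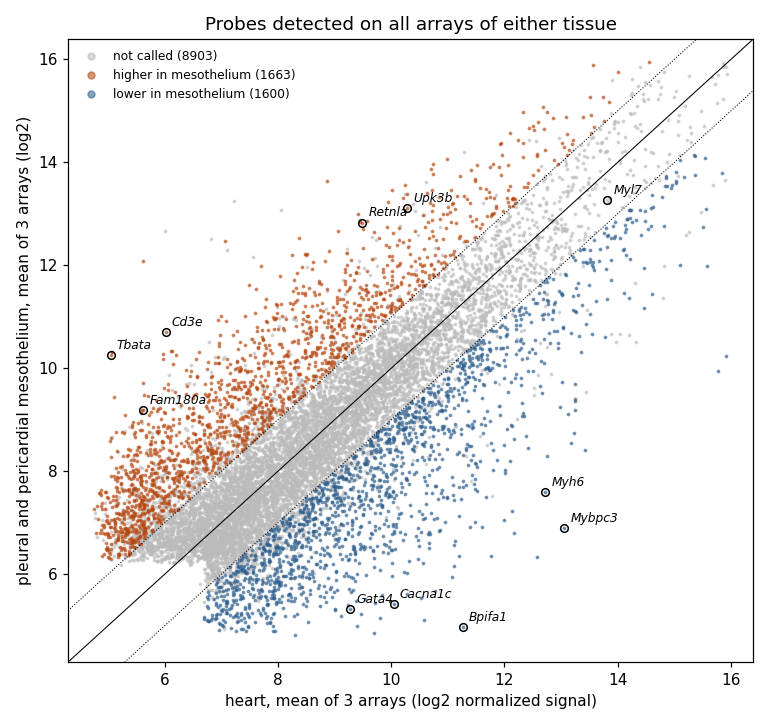
Mean log2 normalized signal of each tested probe in pleural and pericardial mesothelium (vertical axis) and in heart (horizontal axis), each the mean of 3 arrays. Orange points are the 1663 probes called higher in mesothelium, blue points the 1600 called lower and grey points those not called, the solid line marks equal levels and the dotted lines 2 fold; named genes are ringed.

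Genes of the mesothelial lineage were higher in the dissected mesothelium, as its label says. Of the 29 mesothelial markers listed, 24 had a probe that could be named, and 25 of their probes passed detection. All 25 lay above 0, with a median difference of 2.50, and 23 probes of 20 genes were called higher and 0 lower. Detection rested on mesothelium alone for 11 of the 25 probes, which therefore had to differ in that direction, and among the 14 detected in both tissues 13 were called higher. The list does not give independent evidence of direction, since 20 of the 25 probes were named through the study's own lists from these arrays. Those lists hold genes enriched in either mesothelium source, and some of these markers, such as Msln, were listed for the peritoneal source only. Summed over the 25 probes, the normalized signal was 37079 to 43138 on the mesothelium arrays and 7999 to 8925 on the heart arrays.

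Msln, which encodes the surface glycoprotein mesothelin, had levels of 10.74, 10.71 and 10.85 in mesothelium, against 7.29, 8.04 and 8.47 in heart. The heart arrays were more spread than the mesothelium arrays, and the tissues did not overlap, which was so for 32.5% of all tested probes in this direction (2.83 ± 0.39, 7.11-fold, adjusted p = 2.18e-05). Upk3b, a uroplakin of the surface membrane, was measured by 3 probes. Its brightest probe read 13.23, 12.82 and 13.30 in mesothelium, against 10.38, 10.07 and 10.40 in heart, where it was detected on all 3 arrays (2.84 ± 0.37, 7.15-fold, adjusted p = 1.15e-05). The other probes of Upk3b were detected on no heart array and were higher in mesothelium by at least 4.6 and 1.79 fold (adjusted p = 0.000211 and 1.34e-10), but with the 6 arrays fitted on their own the brighter of them was not called (adjusted p = 0.0148). Lrrn4, a leucine-rich repeat protein of the membrane, stood at 9.41, 9.01 and 9.84 in mesothelium, against 5.26, 6.79 and 7.44 in heart. Its heart arrays were the most uneven of these genes, with array 1 below detection (2.92 ± 0.44, 7.59-fold, adjusted p = 5.48e-05), and with the 6 arrays fitted on their own the probe was no longer called (adjusted p = 0.00951). Nkain4, which encodes a protein that interacts with the sodium pump, read 9.77, 10.14 and 10.01 in mesothelium and 7.69, 6.85 and 7.47 in heart (2.63 ± 0.27, 6.2-fold, adjusted p = 6.35e-07).

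The transcription factor Wt1, which marks mesothelium and epicardium, gave 11.33, 11.55 and 10.84 in mesothelium, against 8.57, 8.61 and 8.88 in heart. The heart arrays lay closer together than the mesothelium arrays, with SDs of 0.17 and 0.36 (2.55 ± 0.33, 5.87-fold, adjusted p = 8.81e-06). Ptgis, the prostacyclin synthase, Igfbp6, a binding protein of insulin-like growth factors, and the metalloprotease gene Mmp23 were 4.23-fold, 5.66-fold and 4.68-fold higher (adjusted p = 3.93e-07, 3.86e-07 and 2.01e-07). Fam180a was at 9.19, 9.28 and 9.09 in mesothelium and was detected on no heart array, at least 5.97-fold higher (adjusted p = 2.12e-07). Selp, the adhesion molecule P-selectin, had 7.98, 9.60 and 9.26 in mesothelium, against 7.42, 7.47 and 7.56 in heart. Mesothelium array 1 was low, and the probe was not called (1.46 ± 0.43, adjusted p = 0.0215). Without that array it was. Tbx18 and Ezr were the other listed markers that did not pass, at 1.21 ± 0.28 and 1.30 ± 0.48 (adjusted p = 0.00353 and 0.0807). Ezr, which encodes ezrin, a linker of membrane and actin, was nearly even within each tissue, and with the 6 arrays alone its adjusted p was 0.00024 and it was called.

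**Figure D2:**
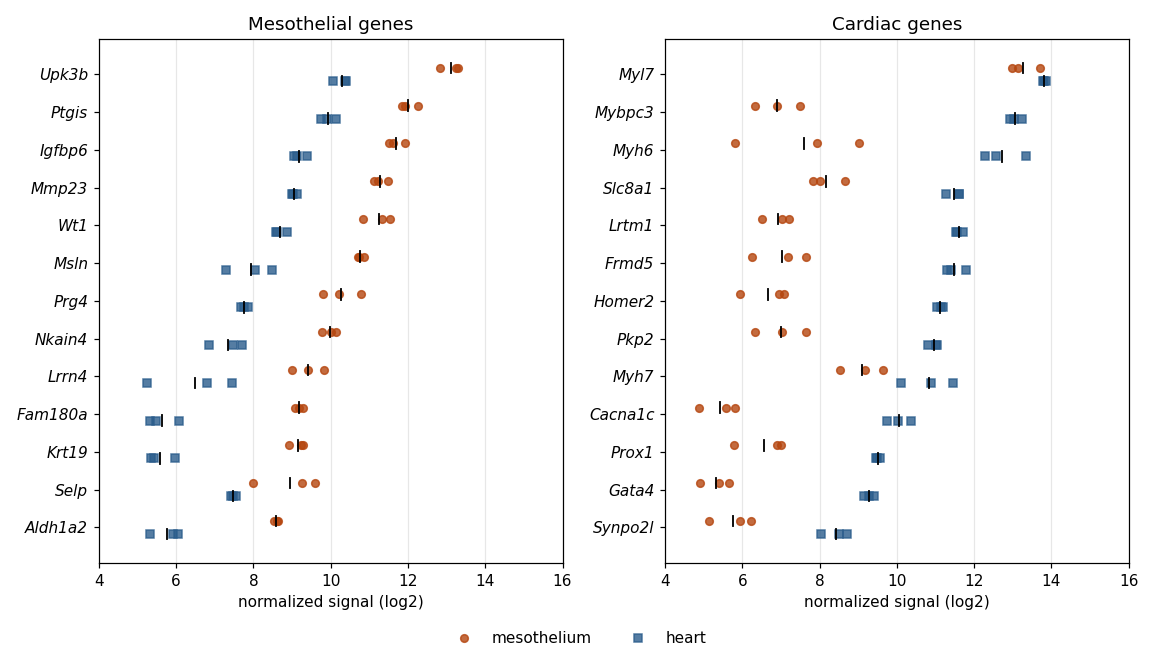
Normalized signal (log2, horizontal axis) of 13 mesothelial genes (left) and 13 cardiac genes (right) on each array, with mesothelium as orange circles above and heart as blue squares below in each row, and the mean of 3 arrays as a black bar. Where a gene had several probes the brightest is shown. The tissues overlapped in none of these rows, and Myl7 is the cardiac gene with the narrowest gap.

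Cell junction genes went both ways. Of 19 tested probes for junctions and keratins 10 were called higher and 5 lower, with a median difference of 1.77. The study's own lists from these arrays named 5 of the 19, so their direction is not independent evidence. Krt19, a keratin of simple epithelia, was at 9.24, 8.91 and 9.28 in mesothelium and detected on no heart array, at least 5.8-fold higher (adjusted p = 4.23e-08). Cldn10, a claudin of tight junctions, read 10.31, 10.41 and 9.60 in mesothelium, against 7.04, 7.17 and 6.63 in heart (8.97-fold, adjusted p = 3.36e-09), and Lgals7, a galectin of stratified epithelia that is also on the mesothelial list, was 7.18-fold higher (adjusted p = 0.000306). The lower genes were Pkp2, Cdh2, Dsg2 and Jup, whose products build the intercalated disc that joins cardiomyocytes. Pkp2, a plakophilin of desmosomes, had 6.34, 7.66 and 7.04 in mesothelium, against 11.04, 11.01 and 10.82 in heart (-3.95 ± 0.40, 15.4-fold lower, adjusted p = 5.44e-07). Cdh2, which encodes N-cadherin, stood at 6.36, 6.70 and 6.41 in mesothelium and 9.13, 9.42 and 9.79 in heart (7.76-fold lower, adjusted p = 9.02e-09). A second probe of Cdh2 was detected on no mesothelium array and was at least 3.27-fold lower, and the remaining one was detected on none of the 6 arrays.

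Genes for the sliding surface were mostly higher. Of 14 tested probes for glycosaminoglycans and lubrication 9 were called higher and 1 lower, with a median difference of 1.66, and 12 of the 14 were detected in both tissues. The study's own lists from these arrays named 7 of the 14, so their direction is not independent evidence. Prg4, which encodes the lubricant lubricin, read 10.78, 10.22 and 9.80 in mesothelium, against 7.76, 7.86 and 7.67 in heart (2.50 ± 0.27, 5.68-fold, adjusted p = 8.53e-07). Of the sulfotransferases, Chst1 was 6.69-fold and Chst4 at least 4.51-fold higher (adjusted p = 3.82e-09 and 2.2e-06). The member that fell was Gpc1, a heparan sulfate proteoglycan held to the membrane by a lipid anchor. It had 10.93, 11.80 and 11.39 in mesothelium, against 14.32, 14.06 and 14.24 in heart (-2.83 ± 0.26, 7.13-fold lower, adjusted p = 1.5e-07). Hyal2 and Sdc2 differed by -0.07 ± 0.18 and 0.04 ± 0.21 and were not called.

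Among signalling genes the counts were small. Of 8 tested probes of the Wnt pathway 4 were called higher and 0 lower. Through the study's own lists from these arrays 4 of the 8 were named, so their direction is not independent evidence. Sulf1, an extracellular sulfatase of heparan sulfate that is counted in that list and the previous one, was 4.23-fold and 3.91-fold higher with its probes (adjusted p = 2.06e-06 and 5.5e-05). The ligand gene Wnt2b was at least 2.67-fold higher and Rspo1, an enhancer of Wnt signals, at least 1.31-fold (adjusted p = 1.26e-07 and 7.82e-05). Of 6 tested retinoic acid probes 1 was called (16.7%, against 13.7% of all tested probes called higher). Detection rested on mesothelium alone for 3 of the 6, and of the 3 detected in both tissues 0 were called. The called gene was Aldh1a2, which makes retinoic acid and was tested through mesothelium alone. The study lists Aldh1a2 as enriched in both mesothelium sources on these same arrays, so its direction is not independent evidence. Aldh1a2 was at 8.61, 8.54 and 8.63 in mesothelium and detected on no heart array, at least 3.97-fold higher (adjusted p = 5.61e-07). Aldh1a1, another enzyme of the same step, was not called (1.17 ± 0.34, adjusted p = 0.0218).

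Extracellular matrix genes of fibroblasts were higher in mesothelium for 10 of 28 tested probes and lower for 0, and the median difference was 0.97. The study's own lists from these arrays named 12 of the 28, so their direction is not independent evidence. S100a4, a calcium-binding protein of motile fibroblasts and leukocytes, had 10.16, 9.79 and 9.64 in mesothelium, against 6.20, 7.19 and 6.30 in heart (9.8-fold, adjusted p = 1.41e-07). Col3a1, which encodes the chain of type III collagen, read 10.18, 9.95 and 9.72 in mesothelium and 6.82, 7.33 and 7.84 in heart (6.15-fold, adjusted p = 4.84e-05). Col1a2, a chain of type I collagen, was 4.05-fold higher (adjusted p = 0.0011), and it was not called when heart array 1, its lowest, was left out. Dcn and Mgp, among the brightest members, differed by 0.73 ± 0.12 and 0.76 ± 0.21 and stayed below 2 fold.

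Genes of the contractile apparatus were among those lower in mesothelium, and Mybpc3 and Myh6 were 2 of the 12 named genes with the largest folds in this direction. Only 7 of the 32 listed sarcomere genes had a named probe, and of the 6 tested 4 were called lower in mesothelium and 0 higher, with a median difference of -2.21. Detection rested on heart alone for 3 of the 6, a filter that favours this direction, and of the 3 detected in both tissues 2 were called. Mybpc3, the cardiac myosin-binding protein C of the thick filament, had levels of 6.32, 6.89 and 7.49 in mesothelium, against 13.23, 13.02 and 12.92 in heart. This was the largest difference among named probes detected in both tissues (-6.16 ± 0.18, 71.5-fold lower, adjusted p = 2.82e-14), and all 3 mesothelium arrays still detected the transcript. Myh6, the alpha myosin heavy chain of cardiac muscle, read 5.82, 7.92 and 9.03 in mesothelium, against 12.29, 12.56 and 13.33 in heart (-5.14 ± 0.49, 35.2-fold lower, adjusted p = 1.92e-07). Mesothelium array 1 was below detection for Myh6 while arrays 2 and 3 were above it. Myh7, the beta chain, was at 8.52, 9.64 and 9.16 in mesothelium and 10.89, 10.11 and 11.46 in heart (3.28-fold lower, adjusted p = 0.000122), and Synpo2l, a protein of the Z-disc, was at least 4.8-fold lower (adjusted p = 3.67e-07). Myh7 was not called with the 6 arrays alone (adjusted p = 0.0265).

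The remaining 2 tested sarcomere genes were not called. Xirp2, an actin-binding protein of striated muscle, was detected on no mesothelium array and differed by -1.77 ± 0.51 (adjusted p = 0.0204), although the 6 arrays alone called it lower (adjusted p = 0.000419). Myl7, the atrial myosin light chain, read 12.97, 13.15 and 13.70 in mesothelium, against 13.79, 13.85 and 13.81 in heart. The tissues did not overlap, which held for 30.8% of all tested probes in this direction, but the difference stayed below 2 fold (-0.54 ± 0.23, adjusted p = 0.13). Outside these tissues its mean level was 10.99 in lung and 7.09 in peritoneal mesothelium, and 5.13 to 6.25 in bladder, adipose, skeletal muscle and liver. Myh6 and Mybpc3, by contrast, had means of 7.59 and 6.90 in pleural and pericardial mesothelium, and at most 5.62 and 5.03 in the 6 tissues other than these and heart.

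Calcium handling and ion channel genes were lower for 11 of 15 tested probes and higher for 0, with a median difference of -2.56. Detection rested on heart alone for 6 of the 15, a filter that favours this direction, and of the 8 detected in both tissues 5 were called. Cacna1c, the pore-forming subunit of the L-type calcium channel, was detected on no mesothelium array and read 9.74, 10.03 and 10.37 in heart, so that it was at least 14.9-fold lower (adjusted p = 6.41e-12). A second probe of Cacna1c was detected on none of the 6 arrays. Cacna2d1, an auxiliary subunit of that channel, had 6.67, 7.80 and 7.99 in mesothelium, against 11.08, 11.01 and 10.89 in heart (11.4-fold lower, adjusted p = 0.000142). Slc8a1, the sodium-calcium exchanger, differed by -3.33 ± 0.20 (adjusted p = 5.66e-10). Asph, whose locus also encodes the calcium-store protein junctin, averaged 6.84 ± 1.24 in mesothelium and 10.85 ± 0.18 in heart with its called probe (SD, n = 3 each) (16.1-fold lower, adjusted p = 0.00026). Its other probe differed by only -0.55 ± 0.25 (adjusted p = 0.163), so the probes of Asph disagree. Atp2a2, the calcium pump of the sarcoplasmic reticulum, stood at a difference of -1.32 ± 0.36 and was not called (adjusted p = 0.0128).

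Of 7 tested probes for cardiac transcription factors and natriuretic peptides 4 were called lower, and 6 of the 7 were detected on all arrays of heart only. Gata4, a zinc-finger factor of heart development, was detected on no mesothelium array and read 9.42, 9.15 and 9.27 in heart, at least 8.75-fold lower (adjusted p = 9.12e-10). Irx4, a homeobox gene of the ventricle, and Smyd1, a methyltransferase of muscle, were at least 2.3-fold and 2.46-fold lower (adjusted p = 5.38e-07 and 6.26e-09). Prox1, a homeobox gene of lymphatic endothelium that also acts in cardiac muscle, had 5.78, 6.90 and 6.99 in mesothelium, against 9.49, 9.55 and 9.46 in heart (7.69-fold lower, adjusted p = 5.37e-08). Mef2a and Mef2c, factors of muscle gene expression, were not called (-1.42 ± 0.63 and 0.42 ± 0.36).

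Further genes led the list of differences towards heart. Lrtm1, a leucine-rich repeat membrane protein, was 25.7-fold and 30.6-fold lower with its probes, and the brighter one read 6.51, 7.20 and 7.03 in mesothelium, against 11.70, 11.55 and 11.54 in heart (adjusted p = 3.21e-10). Homer2, a scaffold protein that binds calcium channels and receptors, and Frmd5, a protein with a FERM domain, were each 22.1-fold lower (adjusted p = 2.03e-09 and 2.5e-09). Tuba4a, an alpha tubulin, and Alpk2, a kinase of the alpha family, were 15.4-fold and 15-fold lower (adjusted p = 1.63e-07 and 4.88e-06). That all 3 mesothelium arrays lay below all 3 heart arrays in these genes was a condition of their choice. It held for 30.8% of all tested probes in this direction.

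To show the regions from which some of the genes at either end are transcribed, the promoters of Upk3b, Lrrn4, Mybpc3 and Myh6 follow, as RefSeq gives them on GRCm38.p6. Each is a window of 300 bases around the annotated start, written 5′ to 3′ on the strand of the gene, with motif letters in capitals. Upk3b lies at chr5:136038246-136038545 on the plus strand, Lrrn4 at chr2:132880813-132881112 on the minus strand, Mybpc3 at chr2:91117894-91118193 on the plus strand and Myh6 at chr14:54966558-54966857 on the minus strand.
Upk3b: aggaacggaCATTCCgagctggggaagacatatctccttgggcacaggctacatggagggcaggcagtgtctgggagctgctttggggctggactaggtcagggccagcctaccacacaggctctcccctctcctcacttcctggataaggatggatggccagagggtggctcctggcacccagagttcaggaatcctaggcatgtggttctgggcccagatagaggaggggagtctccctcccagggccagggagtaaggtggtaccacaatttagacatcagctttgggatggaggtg
Lrrn4: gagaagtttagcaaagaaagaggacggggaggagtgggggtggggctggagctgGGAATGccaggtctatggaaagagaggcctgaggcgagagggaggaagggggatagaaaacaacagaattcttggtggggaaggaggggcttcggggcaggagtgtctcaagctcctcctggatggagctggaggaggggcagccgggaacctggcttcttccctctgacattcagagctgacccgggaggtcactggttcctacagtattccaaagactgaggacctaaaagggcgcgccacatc
Mybpc3: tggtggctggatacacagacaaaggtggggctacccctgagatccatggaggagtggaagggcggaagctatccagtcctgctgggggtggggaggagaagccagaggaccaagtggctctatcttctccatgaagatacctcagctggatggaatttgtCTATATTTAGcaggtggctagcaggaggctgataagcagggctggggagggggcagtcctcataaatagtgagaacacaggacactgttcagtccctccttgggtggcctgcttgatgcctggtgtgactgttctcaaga
Myh6: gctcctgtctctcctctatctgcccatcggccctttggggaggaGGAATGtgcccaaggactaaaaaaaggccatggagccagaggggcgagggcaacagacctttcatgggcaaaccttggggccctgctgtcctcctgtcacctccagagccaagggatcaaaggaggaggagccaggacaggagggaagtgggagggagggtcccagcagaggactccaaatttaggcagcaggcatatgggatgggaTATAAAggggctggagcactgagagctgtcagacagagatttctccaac
Both strands were searched for GGAATG, the core bound by TEAD factors, for AGATAA of GATA factors, for TATAAA and for the MEF2 motif, whose letters can include TATAAA. Counted from the first base of the window, the TEAD letters began at base 10 in Upk3b (on the opposite strand), 55 in Lrrn4 and 45 in Myh6, the MEF2 motif at base 161 in Mybpc3 and TATAAA at base 252 in Myh6. These matches are a description of the letters and not of binding. The TEAD letters stood in 14.7% of all 32851 mouse promoters of the table, in 12.6% of those of genes called higher, in 12.7% of those of genes called lower and in 12.3% of those of all named genes tested. The MEF2 motif stood in 0.557% of all promoters searched, in 2 of 589 promoters of higher genes and in 5 of 498 promoters of lower genes. GATA letters were in 7.47% of promoters of higher genes, 6.43% of lower and 6.64% of tested genes, and TATAAA in 9.34%, 9.84% and 7.63% of them.

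Energy metabolism genes were lower in mesothelium. For the citric acid cycle and the respiratory chain 34 probes were tested, 33 of them detected in both tissues, and 23 probes of 21 genes were called lower and 1 higher, Idh3b, which encodes a subunit of isocitrate dehydrogenase. The median difference was -1.40. Summed over these probes, the signal was 197100 to 231640 on the mesothelium arrays and 491860 to 532220 on the heart arrays. Cox7a1, the heart and muscle form of a cytochrome c oxidase subunit, had 12.66, 12.79 and 12.76 in mesothelium, against 15.61, 15.65 and 15.26 in heart (-2.77 ± 0.38, 6.82-fold lower, adjusted p = 2.26e-05). Atp5g1, a subunit of the ATP synthase ring, read 11.68, 11.96 and 12.19 in mesothelium and 14.45, 14.53 and 14.42 in heart (5.75-fold lower, adjusted p = 4.28e-09). Ndufa5 of complex I was 4.3-fold lower (adjusted p = 1.37e-05), and Mdh1, the cytosolic malate dehydrogenase, at least 3.1-fold (adjusted p = 0.00054). Cox6c and Cox8a, which were among the brightest members, were not called (-0.73 ± 0.17 and 0.38 ± 0.21).

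Of 13 probes for genes of the mitochondrial genome 12 were tested and 1 was called lower, COXI, and the median difference over the 12 was -0.31. For comparison, 13.2% of all tested probes were called lower. COXI, a subunit of cytochrome c oxidase, had 13.89, 13.99 and 13.36 in mesothelium, against 15.59, 15.37 and 15.14 in heart (3.07-fold lower, adjusted p = 2.04e-06). Of the 12 tested probes 11 lay below 0, and for 4 of the 12 the arrays of the tissues overlapped. Over all tested probes 30.8% were lower in mesothelium without overlap and 32.5% were higher without overlap. The median level of the 12 was 14.52 to 14.77 on the mesothelium arrays and 15.22 to 15.41 on the heart arrays, near the top of the scale, and whether they differed by less than the nuclear genes was not tested.

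Among fatty acid genes 4 of 9 tested probes were called lower and 0 higher, with a median of -1.12, and 7 of the 9 were detected in both tissues. Hadhb, a subunit of the trifunctional enzyme of beta-oxidation, read 12.99, 13.12 and 13.14 in mesothelium, against 13.99, 14.28 and 14.34 in heart (2.17-fold lower, adjusted p = 7.46e-06). Mlycd, which degrades malonyl-CoA, Etfa, an electron carrier, and Lpl, the lipoprotein lipase, were 2.66-fold, 2.41-fold and 2.09-fold lower (adjusted p = 8.58e-05, 0.000452 and 0.000107), and a second probe of Etfa was not called. Fabp3, the fatty acid binding protein of heart and muscle, had 13.05, 13.95 and 13.96 in mesothelium, against 15.90, 15.95 and 15.83 in heart, where it was near the top of the scale. Its standard error in the fit over all 8 tissues was 0.81 and it was not called (-2.24, adjusted p = 0.0692), while the 6 arrays alone gave an adjusted p of 0.00111 and a call.

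Ckmt2, the mitochondrial creatine kinase of muscle, and Eno3, the muscle enolase, were in the same position. Ckmt2 gave 10.64, 11.71 and 11.73 in mesothelium and 14.94, 14.87 and 14.61 in heart, a difference of -3.45 ± 0.98 (adjusted p = 0.0182, not called). Eno3 gave 10.25, 10.74 and 11.02 in mesothelium and 14.14, 13.99 and 13.98 in heart, a difference of -3.36 ± 0.78 (adjusted p = 0.0038, not called). With the 6 arrays alone both were called lower (adjusted p = 0.000407 and 0.000107). Ldhb, the heart form of lactate dehydrogenase, was called in either fit, at 11.32, 11.32 and 11.38 in mesothelium and 13.84, 13.81 and 13.79 in heart (5.55-fold lower, adjusted p = 7.7e-10).

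Endothelial genes were lower for 7 of 9 tested probes and higher for 0, with a median of -1.30. Prox1, counted above among the cardiac factors, is also among these 7. Emcn, the sialomucin endomucin of capillaries and veins, had 9.87, 9.88 and 10.17 in mesothelium, against 11.36, 11.31 and 11.20 in heart (2.5-fold lower, adjusted p = 1.84e-05). Eng, a co-receptor of TGF-beta, and Egfl7, a secreted protein of endothelium, were 2.76-fold and 2.54-fold lower (adjusted p = 0.000168 and 0.000284). Pecam1, another gene of the list, had 9.49, 8.07 and 9.71 in mesothelium, against 10.16, 10.32 and 10.41 in heart. It was not called (-1.20 ± 0.63, adjusted p = 0.268). Cd34, found on endothelium and on some fibroblasts and progenitors, lay the other way, at 1.04 ± 0.25, and was not called (adjusted p = 0.00484), although the 6 arrays alone called it higher. Acta2, the actin of smooth muscle, was detected on no mesothelium array and was at least 2.78-fold lower (adjusted p = 6.85e-05).

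**Figure D3:**
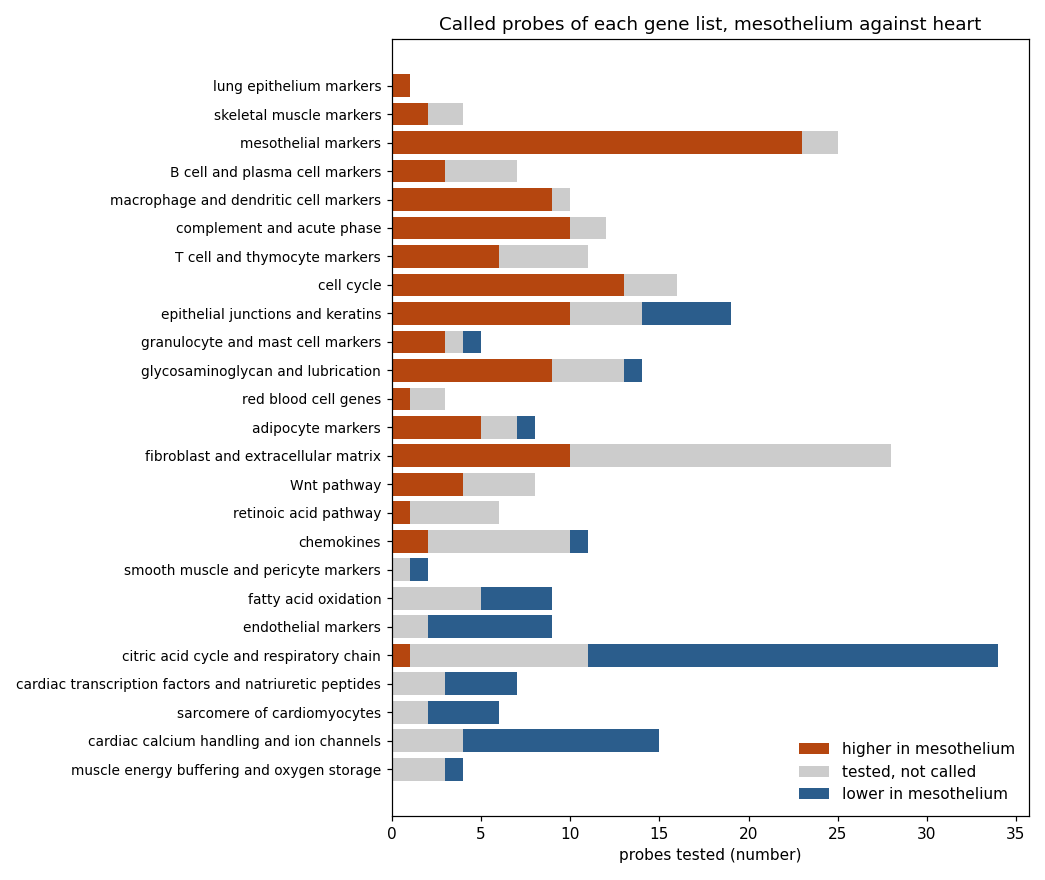
Number of tested probes of each gene list (horizontal axis) that were called higher in mesothelium (orange), not called (grey) or called lower (blue), with the lists ordered by their median log2 difference from the highest at the top. Most tested probes were called lower in the lists of sarcomere, cardiac calcium and ion channel, respiratory chain and endothelial genes, and most were called higher in the lists of mesothelial, macrophage, complement and cell cycle genes.

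Genes of lymphoid cells were among those higher in mesothelium. Of the T cell and thymocyte markers 11 probes were tested, 8 of them through mesothelium alone, and 6 were called higher and 0 lower, with a median of 2.21. Of the 3 detected in both tissues 0 were called. Tbata, a gene of the thymic stroma, had 11.29, 9.08 and 10.43 in mesothelium and was detected on no heart array, at least 12.6-fold higher (adjusted p = 9.7e-10). Cd3e, a chain of the T cell receptor complex, read 11.66, 9.84 and 10.62 in mesothelium, against 6.97, 5.63 and 5.47 in heart (4.68 ± 0.87, 25.7-fold, adjusted p = 0.000538), and its call was lost without mesothelium array 1, heart array 2 or heart array 3. Rag1, the recombinase of developing lymphocytes, gave 10.21, 7.75 and 8.46 in mesothelium and was detected on no heart array, at least 4.59-fold higher (adjusted p = 2.96e-06). Ccl25, a chemokine of thymus and gut that attracts T cell precursors, was at least 5.32-fold higher (adjusted p = 7.92e-05). In the fit of the 6 arrays alone Rag1 and Ccl25 were not called (adjusted p = 0.00873 and 0.00588). Of the T cell receptor probes themselves 6 of 65 were tested and 2 called higher. Trbv31 had 14.47, 12.88 and 13.56 in mesothelium, against 9.77, 8.56 and 8.29 in heart (27.2-fold, adjusted p = 0.00036), and Trgv4 was detected on no heart array.

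The mesothelium arrays differed from each other in these genes. Array 1 was the highest for 10 of the 11 tested T cell probes and array 2 the lowest for 10, and the summed signal was 16276, 4529 and 8782 on mesothelium arrays 1, 2 and 3, against 1911 to 2236 in heart. Tbata and Rag1 stood out from the whole series, with means of 10.27 and 8.81 in pleural and pericardial mesothelium and at most 5.31 and 5.72 in the other 7 tissues. Cd3e was also present in adipose and lung, at means of 9.84 and 8.32. Of the 17 listed genes with a named probe 3 were detected on none of the 6 arrays, Ccr9, Lef1 and Arpp21. Tbata and Rag1 are in the study's list of genes enriched in this source, which was drawn from these same arrays. Their direction is therefore not independent evidence. The part of thymus or other lymphoid tissue in these values was not tested.

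Proliferation genes followed the same arrays. Of 16 tested cell cycle probes 13 were called higher and 0 lower, with a median of 1.90, and 13 of the 16 passed detection through mesothelium alone, while 2 of the 3 detected in both tissues were called. The study's own lists from these arrays named 4 of the 16, so their direction is not independent evidence. The summed signal was 9691, 5071 and 5391 on mesothelium arrays 1, 2 and 3 and 3976 to 4323 in heart, and array 1 was the highest for 14 of the 16. Uhrf1, which maintains DNA methylation in dividing cells, had 11.26, 9.84 and 10.25 in mesothelium, against 7.71, 7.75 and 7.84 in heart (6.42-fold, adjusted p = 5.6e-05). Nusap1, a protein of the mitotic spindle, was at 9.73, 8.53 and 8.33 in mesothelium and detected on no heart array, at least 4.78-fold higher (adjusted p = 4.3e-06). The mitotic kinase gene Plk1 was at least 3.42-fold higher (adjusted p = 0.000179). Mki67 was not called (1.18 ± 0.30, adjusted p = 0.0073), nor was Cenpa, at -0.83 ± 0.26. Among the 12 genes with the largest differences were H2ac12 and Hist1h2an, histone H2A genes with near-identical copies that a probe may not tell apart. H2ac12 read 12.90, 10.77 and 11.71 in mesothelium, against 7.75, 8.28 and 8.08 in heart, and Hist1h2an 14.22, 12.88 and 13.28 in mesothelium, against 9.88, 10.17 and 10.03 in heart (13.5-fold and 10.8-fold, adjusted p = 5.05e-05 and 8.67e-06).

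Immunoglobulin probes were the largest family. Of 310 such probes 148 were tested and 147 lay above 0. Of the 148 tested 99 were called higher and 0 lower, beside 13.7% called higher among all tested probes. The 99 made up 5.95% of all probes called higher, which is a share of the calls and not of the tested probes. The called probes were 50 of 60 tested for the heavy chain, 47 of 81 for kappa and 2 of 7 for lambda, and their differences were 1.23 to 4.23. The median level was 9.64, 9.32 and 10.39 on mesothelium arrays 1, 2 and 3, against 7.63, 6.61 and 6.28 on heart arrays 1, 2 and 3. Heart array 1 was the highest heart array for 112 of the 148 probes. For the heavy chain the medians on heart arrays 1, 2 and 3 were 6.31, 5.79 and 5.70. These lie below the detection floors of those arrays (6.62, 6.51 and 6.69). Many heavy chain probes were thus tested through mesothelium alone, a filter that favours this direction. Variable segments share sequence, so a probe may also have bound transcripts of related segments and the probes are not independent.

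Other B cell genes were fewer. Of 7 tested probes 3 were called higher, and of the 4 detected in both tissues 1 was. Cd74, the invariant chain of antigen-presenting cells, averaged 13.94 ± 0.23 in mesothelium and 11.51 ± 0.43 in heart (SD, n = 3 each) (5.39-fold, adjusted p = 1e-05). Tnfrsf17, a receptor of plasma cells, read 8.75, 8.27 and 8.84 in mesothelium and 6.78, 5.76 and 5.76 in heart (5.74-fold, adjusted p = 6.67e-06). The IgE receptor gene Fcer2a was at least 5.07-fold higher (adjusted p = 0.00227), but its call was lost when any 1 of the 6 arrays was left out. Ebf1 and Xbp1, transcription factors of B cells and plasma cells, were not called (0.07 ± 0.24 and 0.66 ± 0.14).

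**Figure D4:**
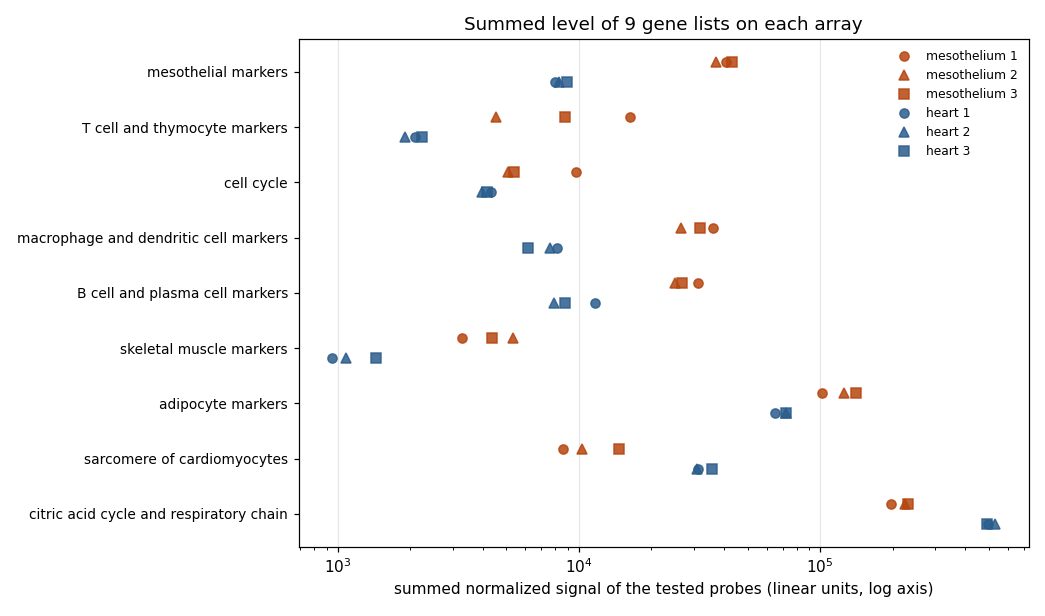
Summed normalized signal (linear units on a log axis) of the tested probes of 9 gene lists on each array, with mesothelium in orange above heart in blue and the symbol giving the array number. Mesothelium array 1 is the highest for T cell, cell cycle, macrophage and B cell genes. It is the lowest of the mesothelium arrays for sarcomere, skeletal muscle, adipocyte, and citric acid cycle and respiratory chain genes.

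Macrophage genes were higher for 9 of 10 tested probes and lower for 0, with a median of 2.35, and 7 of the 10 were detected in both tissues. Retnla, a secreted protein of alternatively activated macrophages, had 13.09, 12.97 and 12.43 in mesothelium, against 9.45, 9.74 and 9.28 in heart (10.1-fold, adjusted p = 5.42e-08). Its mean was 13.08 in peritoneal mesothelium and 13.26 in adipose. Lyz1, a lysozyme, was 11.5-fold and 6.17-fold higher with its probes (adjusted p = 2.31e-10 and 4.85e-05), and Lyz2, whose sequence is close to that of Lyz1, was not called (1.51 ± 0.40, adjusted p = 0.0114). Cd68 of macrophage lysosomes and the lectin gene Clec4d were at least 4.46-fold and 2.78-fold higher (adjusted p = 5.83e-07 and 5.11e-07). The pan-leukocyte surface genes Cd52 and Cd53 were 17.4-fold and 11.1-fold higher (adjusted p = 0.000181 and 1.14e-06), with 12.20, 11.21 and 11.44 in mesothelium, against 7.56, 7.51 and 7.42 in heart for Cd52. Rnase6, an antimicrobial ribonuclease, was 12.5-fold higher (adjusted p = 2.39e-06). Ear1, a ribonuclease of eosinophils with close copies, was 9.73-fold and 7.68-fold higher with its probes (adjusted p = 2.19e-10 and 1.29e-09).

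Complement and acute-phase genes rose together, with 10 of 12 tested probes called higher and 0 lower and a median of 2.31, and 8 of the 9 probes detected in both tissues were among the called. The study's own lists from these arrays named 3 of the 12, so their direction is not independent evidence. Saa3, a serum amyloid A made outside the liver, had 11.03, 10.41 and 10.53 in mesothelium, against 7.44, 7.28 and 6.92 in heart (10.9-fold, adjusted p = 5.55e-08). Fcna, a ficolin that starts the lectin pathway, read 12.70, 12.56 and 12.87 in mesothelium and 9.89, 9.37 and 9.26 in heart (9.2-fold, adjusted p = 6.61e-10). Orm1, an orosomucoid, and C2, a complement protease, were 8-fold and 7.65-fold higher (adjusted p = 1.45e-08 and 7.06e-09). C1ra and C1s1 were not called, and mesothelium array 3 was the highest for both (7.23, 7.37 and 9.39 and 6.53, 7.76 and 9.30 in mesothelium). Of 11 tested chemokine and chemokine receptor probes 2 were higher and 1 lower (18.2% and 9.1%, against 13.7% and 13.2% of all tested probes). Cxcl13, which draws B cells, had 13.46, 13.06 and 13.41 in mesothelium, against 10.77, 10.32 and 9.51 in heart (8.6-fold, adjusted p = 0.000111), and Cxcl14 was detected on no mesothelium array and was at least 3.16-fold lower (adjusted p = 1.76e-07).

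Markers of neighbouring tissues were present in both directions. Of 8 tested adipocyte probes 5 were called higher and 1, Lpl, lower. Car3, a carbonic anhydrase of adipose and muscle, was 4.59-fold and 6.63-fold higher with its probes, and the brighter read 14.73, 14.80 and 14.59 in mesothelium, against 12.09, 12.69 and 12.75 in heart (adjusted p = 1.62e-06 for it). Acaca and Fasn, enzymes of fatty acid synthesis, were 4.5-fold and 2.9-fold higher (adjusted p = 0.000113 and 0.00174), and Fasn was not called when heart array 1, mesothelium array 2 or mesothelium array 3 was left out. Fabp4, a defining gene of adipocytes, was detected on no heart array and differed by too little for a call, with 7.41, 6.51 and 6.47 in mesothelium. Its probe was dim in adipose as well, at a mean of 7.11. The summed signal of the list was 101770 to 140230 in mesothelium and 64697 to 72359 in heart.

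Of the 5 skeletal muscle genes with a named probe 3 were tested. Mybpc1, the myosin-binding protein C of slow skeletal muscle, had 8.15, 9.70 and 8.10 in mesothelium and was detected on no heart array, at least 4.12-fold higher (adjusted p = 0.00235), a call that was lost when any 1 of the 6 arrays was left out. Actn3, the alpha-actinin of fast fibres, gave 8.38, 9.68 and 8.27 in mesothelium and was detected on no heart array, but it was not called (adjusted p = 0.0646), although the 6 arrays alone called it higher (adjusted p = 0.00136). Mesothelium array 2 was the highest for both. Their means in skeletal muscle itself were 13.76 and 15.26. The other tested gene, Tpm3, was 3.25-fold higher with its brightest probe (adjusted p = 4.59e-05), a call kept under every alternative. That probe had a mean of 11.43 in mesothelium and only 8.45 in skeletal muscle. A second tested probe of Tpm3 was not called (adjusted p = 0.0663), and its remaining probe did not pass detection. The myosin gene Myh1 and the receptor gene Chrna1 were detected on none of the 6 arrays, and the part of skeletal muscle in these values was not tested.

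Of the lung epithelial genes 3 had a named probe, and 1 was tested. Napsa, an aspartic protease of alveolar type II cells, read 10.18, 9.36 and 9.93 in mesothelium, against 7.27, 6.84 and 5.64 in heart (9.47-fold, adjusted p = 0.000691), and its call was lost without mesothelium array 1, mesothelium array 3 or heart array 3. The factor Nkx2-1 and the type II cell gene Lamp3 were detected on none of the 6 arrays. Red blood cell genes were called higher for 1 of 3 tested probes, Hbb-b1 at 11.03, 11.63 and 10.08 in mesothelium, against 8.00, 8.47 and 9.55 in heart (4.74-fold, adjusted p = 8.82e-05). With the 6 arrays alone Hbb-b1 was not called (adjusted p = 0.0221), while Hba-a1, at 15.68, 15.79 and 15.37 in mesothelium and 14.11, 14.46 and 14.19 in heart, was called higher (adjusted p = 0.00129, and 0.00489 in the fit over all 8 tissues). The globin genes have near-identical copies and a probe may not tell them apart.

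The heart arrays differed from each other in secreted proteins of the airway. Bpifa1, a protein of the lining fluid of the upper airways, was detected on no mesothelium array and read 8.74, 12.47 and 12.58 in heart, at least 34.7-fold lower in mesothelium (adjusted p = 1.94e-06). Ltf, which encodes lactoferrin of secretions and neutrophil granules, had 7.37, 5.57 and 5.73 in mesothelium, against 8.26, 11.23 and 12.22 in heart (20.3-fold lower, adjusted p = 0.000155), and it was not called with the 6 arrays alone (adjusted p = 0.0266). Heart array 1 was about 3 log2 units or more below heart arrays 2 and 3 for both genes. Their means in lung were 11.40 and 10.21, and in the other 6 tissues, mesothelium included, they were at most 5.17 and 6.22. The part of airway tissue in these values was not tested.

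**Figure D5:**
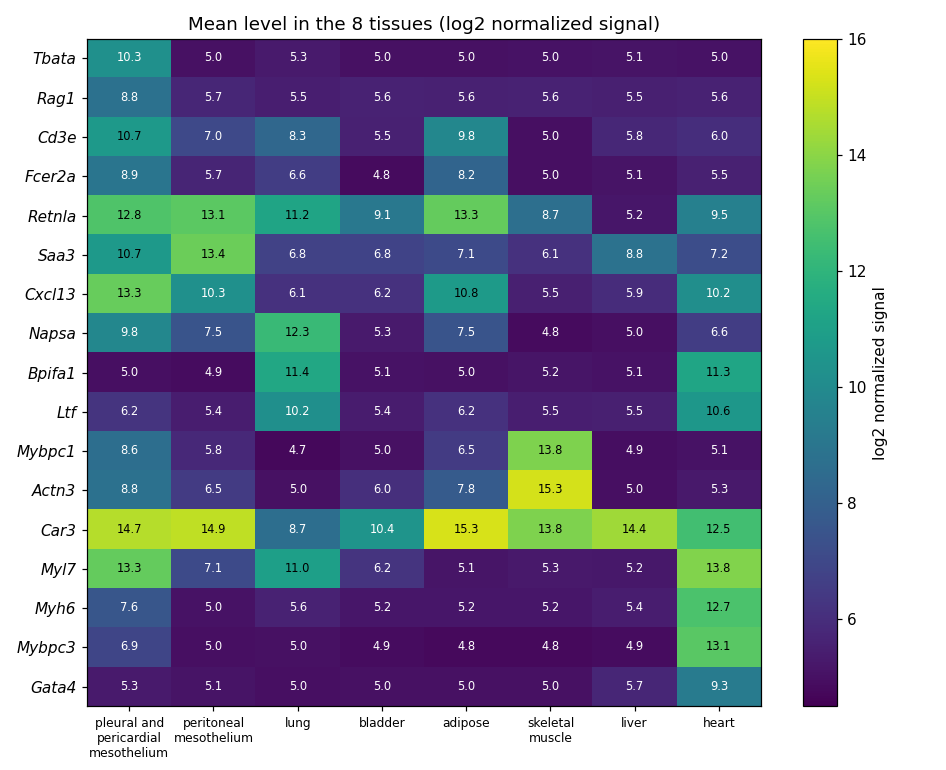
Mean log2 normalized signal of 17 genes (rows, brightest probe where there were several) in the 8 tissues (columns), each the mean of 3 arrays. Tbata and Rag1 stand above background in pleural and pericardial mesothelium only, Mybpc1 and Actn3 are brightest in skeletal muscle, Bpifa1 and Ltf are bright in lung and heart, and Myl7 is bright in pleural and pericardial mesothelium, lung and heart.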

How the data were processed

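The 24 arrays held RNA of 8 mouse tissues, 3 arrays for each, and the samples were grouped by the tissue named in their labels. The authors extracted RNA with RNeasy kits, amplified it with the Illumina TotalPrep kit, scanned the chips in BeadScan and summarized the beads in BeadStudio. They deposited a signal intensity for each of 46120 probes, not normalized between arrays, of which 36.0% were at or below 0, so background had been subtracted. Per the file headers each intensity is paired with a detection p-value, but the deposited value rises with the signal and is 1 minus such a p-value. The authors also deposited intensities quantile normalized with Lumi, which were used only as an alternative.

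Since the methods name no background step, the normexp step of limma 3.58.1 (R 4.3.3) was run first, with an offset of 16 and with 1616 negative controls inferred from the detection scores. For this inference 10 rows whose scores did not fall on the steps of the controls were left out. Quantile normalization of the log2 values across the 24 arrays followed. A mean per tissue was fitted over all 24 arrays with lmFit and eBayes (assumed share of changed probes 0.01), and the contrast was mesothelium minus heart. Following the methods, a probe was called at 2 fold or more with a B-statistic above 0, among probes with a score above 0.99 on all 3 arrays of either tissue. The p-values were adjusted over all 46120 probes by the method of Benjamini and Hochberg. The number of arrays limits the precision. The fitting steps were tested on simulated data.

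A probe was named through the study's lists of enriched and tested genes (347 probes), through a gene ID in its identifier looked up in RefSeq (9735) or through an immunoglobulin, T cell receptor or mitochondrial name in the identifier (365). Of 95 probes with both a list name and a gene ID 92 gave the same gene. The naming by gene ID is thus not free of error, and 10447 of the 46120 probes have a name. The members and the gene lists were chosen with earlier results of these data known. The study's lists hold probes enriched in either mesothelium source on these same arrays. In every gene list here, the direction of probes named through them is therefore not independent evidence. Genes named in the text are the 12 with the largest fold in each direction among called and named probes whose tissues do not overlap. Added to them are up to 4 called and up to 2 uncalled members of each list, and the genes the study took to in-situ hybridization with Wt1. Further probes of these genes are given for some of them. The further probes of Lgals7, Plk1, Uhrf1, Mki67 and Lpl were detected on none of the 6 arrays. Those of Fcer2a, Dcn, C1ra, C1s1 and Lyz2 were not called. The remaining names, members of the lists given to say which were undetected or which few were called, were chosen after their values were seen. Where a fold is a bound, the higher tissue's mean was set against the mean of its partner's detection floors. The alternatives were another background step, the authors' normalized values, median scaling, an offset of 50, all rows for the negative controls, the 6 arrays alone, an adjusted p under 0.05 as the threshold, no filter, detection on all 6 arrays, a replicate block and leaving out each array. Peritoneal mesothelium and the other tissues enter only through the shared spread and the mean levels quoted.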

Additional observations from a re-analysis of the deposited data

How the results depend on the processing

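With mesothelium array 1, 2 or 3 or heart array 1, 2 or 3 left out in turn, 1402 to 1583 probes were called higher in mesothelium and 1437 to 1519 lower. When all rows were used to infer the negative controls, whose SD then came out at 159 to 789 in place of 14.1 to 43.0, the calls were 820 higher and 982 lower. With detection required on all 6 arrays, 888 were called higher and 1128 lower, fewer because probes absent from either tissue are then not tested. Under the other alternatives 1436 to 1912 probes were higher, apart from 2270 with the adjusted p threshold, and 1453 to 1734 lower, apart from 1954 with that threshold. No call in either direction changed sign under any of the 16 alternatives. Median scaling moved the median of all tested probes by 0.10 on the log2 scale.

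Whether the replicate numbers pair the arrays is not clear. Correlations between the deviations of arrays with the same number were 0.11, -0.04 and 0.10. Those of arrays with different numbers ran from -0.14 to 0.06. With the replicate number as a block 1710 probes were called higher and 1690 lower, and of 102 called probes chosen by the naming rule 2 lost their call.

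Of the 102 called probes that the naming rule chose, 13 lost their call with the 6 arrays alone (Acaca, Acta2, Fasn, Pnpla2, Col1a2 and Rspo1 beside those given above), 29 with all rows for the negative controls and 44 with detection on all 6 arrays. Under every other alternative 0 to 6 did. Lyz2 was called higher with the 6 arrays alone. Fcer2a and Mybpc1 were lost under 10 alternatives each, and Fasn under 6. Called T cell probes were 4 to 8, cell cycle probes 10 to 14 and adipocyte probes 3 to 5 as arrays were left out, with 3 adipocyte probes without mesothelium array 3 or heart array 1, and the call of the lung marker Napsa was lost without 3 of them. The lower call of Lpl was lost without heart array 1. As arrays were left out, mesothelial markers numbered 23 to 24 and citric acid cycle and respiratory chain probes 19 to 23. Over all 16 alternatives the called probes were 13 to 24 for mesothelial markers, 0 to 8 for T cell, 2 to 14 for cell cycle, 2 to 5 for adipocyte, 5 to 12 for calcium handling and ion channel, 2 to 5 for sarcomere and 19 to 24 for citric acid cycle and respiratory chain genes. The lowest counts came with detection on all 6 arrays, or with the 6 arrays alone for adipocyte genes and with 1 array left out for the citric acid cycle and respiratory chain. For dim probes the offset and the background make folds smaller, and detection on 3 arrays per tissue limits what can be seen of genes near background.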
